A study of Mus musculus with 4 samples.

Results

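Secretory and membrane proteins fold in the endoplasmic reticulum (ER), where chaperones such as BiP, lectin chaperones and disulfide isomerases handle them. Misfolded chains are sent back to the cytosol by ER-associated degradation. When unfolded protein accumulates, the sensors IRE1, ATF6 and PERK start the unfolded protein response: IRE1 splices the RNA of the transcription factor XBP1, ATF6 is cut to release a transcription factor, and PERK phosphorylates eIF2alpha, which slows translation and favours ATF4. ATF6 and XBP1 act on chaperone and degradation genes through promoter elements that include the ER stress response element (ERSE). Macrophages carry a large load of secretory, lysosomal and surface proteins.

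The 34 genes described here are ER chaperones, isomerases, ER-associated degradation genes, translocon genes and the genes of the 3 sensors. The rule takes them by symbol from a list and applies no threshold to their values, although the list was drawn up with earlier results of these data known. All 34 were among the 21523 gene identifiers of the deposited table. RNA was sequenced from RAW264.7, a mouse macrophage-like line grown in DMEM with fetal bovine serum and antibiotics. The 2 control libraries (replicates 1 and 2) came from cells listed with no treatment. The 2 treated libraries (replicates 1 and 2) came from cells given 1,5-anhydroglucitol (1,5-AG) at 0.5 mM for 24 h. 1,5-AG is a polyol that resembles glucose without the hydroxyl group on its first carbon. How long the controls were cultured was not stated. The labels do not say that replicates were grown apart, so p-values reflect only how these libraries vary, and that variation may be technical.

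The values are FPKM, fragments scaled to the exon length of the gene and the size of the library. Levels of different genes can be set side by side only roughly. The exon length merges all isoforms, which lowers a gene with a long minor one. Depth, as the fragments recovered from FPKM and summed over genes, was 15152113 and 16216473 for the controls, against 14605788 and 15101753 after treatment. Of 8 macrophage markers 7 had a row, and Cd68 lay between 472 and 500 FPKM in the 4 libraries. The summed level of these 7 markers was 5897 and 5732 FPKM in control and 4402 and 4286 FPKM with 1,5-AG, and most of that gap came from Lyz2 (4554 and 4422 against 3095 and 3001 FPKM). Of 24 markers of other cell types 10 had a row, and the rest have no value to read. Of the 10 with a row none was at 0 in all 4 libraries, and 9 had a mean under 1 FPKM. Their sum ran from 8.51 to 9.19 FPKM over the 4 libraries, of which Sdc1 had a mean of 7.79 FPKM. Sdc1 is on the list for plasma cells, professional secretory cells rich in ER, whose other markers Jchain, Mzb1 and Tnfrsf17 had means of 0.0127, 0.0399 and 0.38 FPKM. The part of the Lyz2 difference in the results below was not tested. In bulk RNA, fewer cells of a type and less RNA per cell cannot be told apart.

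Promoter sequence is shown first because a subset of the members shares an element that ATF6 and XBP1 are known to use. RefSeq promoters on GRCm38.p6 (250 bases before to 50 after a gene start, the start being base 0) were found for 29 of the 34 members, and the entries for Atf6, Manf, Hyou1, Derl1 and Sec61a1 were missing. Gene coordinates printed further below are from another annotation, GENCODE, whose starts differ for some members. By it the ERSE match of Hspa5 lies inside the gene, and the window of Pdia4 ends before the gene start. The ERSE was searched on both strands as CCAAT, then any 9 bases, then CCACG. It was present in 9 of the 29 members (31%), Calr, Canx, Creld2, Derl3, Dnajc3, Hsp90b1, Hspa5, Pdia6 and Syvn1, against 37 of all 27025 genes with a promoter (0.137%). The shorter ERSE-II, ATTGG and CCACG with 1 base between them, was present in Dnajb11 and Herpud1 and in 12 of 27025 genes (0.0444%). The windows below show each match with 10 bases on either side, read in the direction of the element, with its fixed letters in capitals.

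Hspa5 (chr2:34772015-34772053, plus strand): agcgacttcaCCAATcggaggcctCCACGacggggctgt
Hsp90b1, distal (chr10:86705628-86705666, minus strand): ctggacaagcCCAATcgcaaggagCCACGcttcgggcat
Hsp90b1, proximal (chr10:86705523-86705561, plus strand): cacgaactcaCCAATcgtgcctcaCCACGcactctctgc
Calr (chr8:84847065-84847103, plus strand): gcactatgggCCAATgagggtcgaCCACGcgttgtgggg
Canx (chr11:50325790-50325828, minus strand): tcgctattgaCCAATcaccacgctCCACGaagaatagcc
Pdia6 (chr12:17266481-17266519, plus strand): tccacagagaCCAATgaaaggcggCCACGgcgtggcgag
Dnajc3 (chr14:118937817-118937855, plus strand): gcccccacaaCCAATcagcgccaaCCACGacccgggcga
Creld2 (chr15:88819510-88819548, minus strand): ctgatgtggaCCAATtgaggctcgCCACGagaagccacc
Syvn1 (chr19:6046522-6046560, plus strand): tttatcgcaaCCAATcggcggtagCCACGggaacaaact
Derl3 (chr10:75893232-75893270, minus strand): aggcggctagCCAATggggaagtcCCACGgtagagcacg
Herpud1, ERSE-II (chr8:94386367-94386397, plus strand): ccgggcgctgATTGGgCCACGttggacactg
Dnajb11, ERSE-II (chr16:22857842-22857872, plus strand): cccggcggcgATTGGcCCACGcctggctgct

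The spacer of 9 bases differed in every one of these ERSE matches. In Creld2, Calr, Derl3 and the proximal match of Hsp90b1 the element read against the direction of the gene. Hsp90b1 was the member with a pair of exact ERSE matches, between bases -212 and -194 and between -107 and -89. The match of Dnajb11 lay after the annotated start, at bases 7 to 17. The XBP1-type core TGACGTGG was found in 1 member, Txndc5, and in 0.714% of all genes. The ATF4-type site TTGCATCA was found in 1 member, Herpud1, and in 1.03% of all genes. A match of letters is a description and does not show that a factor binds there. The members were listed as genes of the unfolded protein response, so their high share of ERSE matches is not a test.

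The whole window is given for the 3 members that passed the test described below. That of Hspa5 and of Creld2 carries 1 ERSE match, in capitals, and that of Pdia4 carries no exact match of any of the 4 motifs.

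Hspa5 (chr2:34771840-34772139, plus strand): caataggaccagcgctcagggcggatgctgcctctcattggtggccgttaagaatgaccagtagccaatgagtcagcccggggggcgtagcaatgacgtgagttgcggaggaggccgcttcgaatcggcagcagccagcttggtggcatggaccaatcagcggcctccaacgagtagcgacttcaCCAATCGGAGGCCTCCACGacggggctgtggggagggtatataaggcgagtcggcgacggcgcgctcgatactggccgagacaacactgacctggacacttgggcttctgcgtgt
Creld2 (chr15:88819396-88819695, plus strand): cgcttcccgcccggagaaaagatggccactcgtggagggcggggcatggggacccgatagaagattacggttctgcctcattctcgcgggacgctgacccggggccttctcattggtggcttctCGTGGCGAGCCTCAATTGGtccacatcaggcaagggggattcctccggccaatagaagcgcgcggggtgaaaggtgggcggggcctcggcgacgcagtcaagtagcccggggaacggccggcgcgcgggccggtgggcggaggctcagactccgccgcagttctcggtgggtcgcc
Pdia4 (chr6:47813463-47813762, minus strand): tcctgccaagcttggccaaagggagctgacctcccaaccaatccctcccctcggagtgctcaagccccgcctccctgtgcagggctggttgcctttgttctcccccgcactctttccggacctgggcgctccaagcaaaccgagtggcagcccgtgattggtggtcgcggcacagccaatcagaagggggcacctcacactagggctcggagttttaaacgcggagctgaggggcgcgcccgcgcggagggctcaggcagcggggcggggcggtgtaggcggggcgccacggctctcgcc

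The module was strongly expressed in both groups. Its 34 genes held 1.40% of all gene-assigned fragments in each control library, and 1.55% and 1.53% in the 1,5-AG libraries. The 95% Wilson intervals, which cover counting error only, were 1.393% to 1.405% and 1.397% to 1.409% in control. They were 1.547% to 1.559% and 1.525% to 1.538% with 1,5-AG. Both treated libraries lay above both controls in this share. Calr, P4hb, Hspa5, Pdia3 and Hsp90b1 made up 56.0% to 57.1% of the module's summed FPKM in the 4 libraries. Calreticulin (Calr), a lectin chaperone that binds calcium, was the most abundant member and rank 45 among all genes. P4hb, the prototype protein disulfide isomerase, ranked 48 and Hspa5, which encodes BiP, ranked 82.

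**Figure D1:**
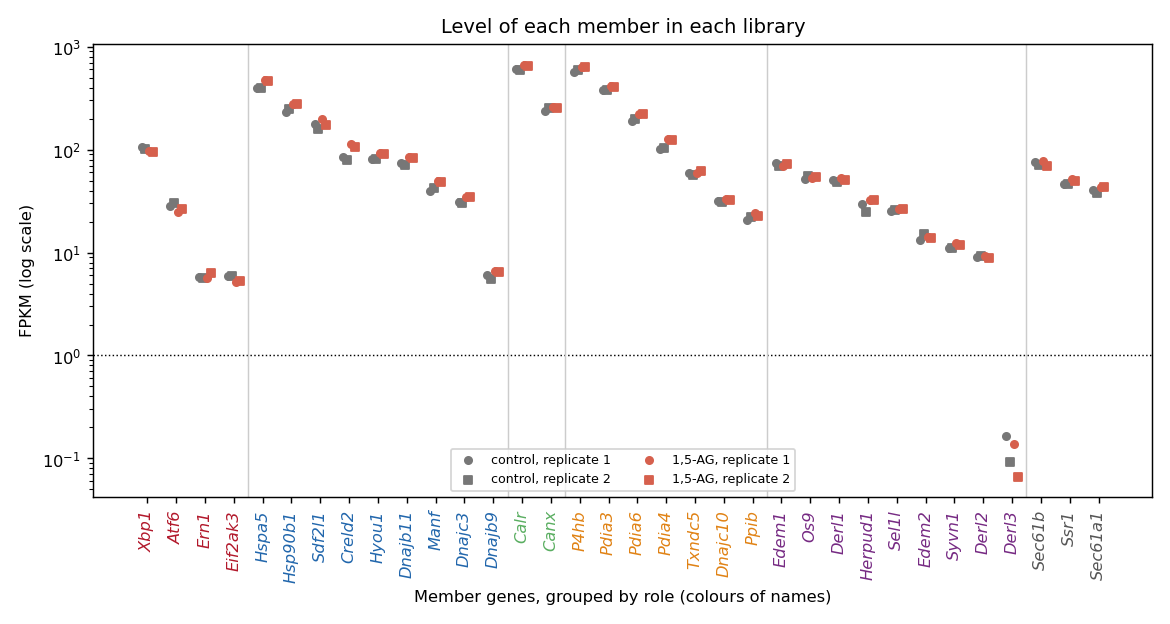
FPKM of each of the 34 members on a log scale, grouped by role from left to right as sensors and Xbp1, BiP and GRP94 with their partners, lectin chaperones, isomerases, degradation genes and translocon genes. Each point is 1 library, grey for control and red for 1,5-AG, and the dotted line marks 1 FPKM, which Derl3 alone stayed under.

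Levels spanned a wide range within several roles. Among the chaperones and partners of BiP the control mean ran from 395 FPKM for Hspa5 to 5.83 FPKM for Dnajb9, an ER J-protein that assists BiP. Among the sensors Ern1, the gene of IRE1, and Eif2ak3, the gene of PERK, had control means of 5.73 and 5.93 FPKM, and Atf6 one of 29.2 FPKM. Ern1 and Eif2ak3 were at the bottom of the tested members with Dnajb9, and the order of these 3 was not resolved beyond the spread of their libraries. Derl3, a derlin of the degradation machinery, was barely detected: the controls had 5 and 3 fragments and the 1,5-AG libraries 4 and 2. It was the 1 member with a mean under 1 FPKM and was not tested, although its promoter holds an ERSE match.

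The comparison asks how 1,5-AG changed these genes. Each difference below is the 1,5-AG mean less the control mean of log2(FPKM + 1), which understates changes of low genes, and was tested with limma across all 11120 genes with a mean of at least 1 FPKM and adjusted over all of them. With 1,5-AG 3 of the 33 tested members rose and 0 fell by limma (9.09% higher), against 0.809% higher and 0.647% lower among all genes tested. At an unadjusted limma p under 0.05 there were 15 of the 33 members higher and 3 lower, against 9.15% higher and 9.04% lower among all genes. The share of lower members was thus close to that of all genes. Both 1,5-AG libraries lay above both controls in 23 of 33 members (69.7%), against 24.2% of all genes. They lay below both controls in 3 members (9.09%), against 25.4% of all genes. Lists outside the module are described below. In 23 of 32 genes of translocation, signal peptidase and glycosylation both 1,5-AG libraries lay above both controls. The same held in 12 of 17 genes listed with PERK and ATF4 and 13 of 18 cytosolic and mitochondrial chaperones. It held in 7 of 21 other ER folding and redox genes and 7 of 22 other degradation genes. In ER exit and ATF6 processing it held in 8 of 18. The members' median log2 fold change was 0.13, and that of all genes was -0.0025. The changes were small: the 33 values ran from -0.18 for Atf6 to 0.44 for Creld2. At 2 libraries a group, an exact permutation of the labels cannot give a two-sided p under 0.333, so the p-values rest on the spread that limma pools over genes.

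Creld2 (ENSMUSG00000023272, chr15:88819646-88826683, plus strand, mm10), the gene of a secreted ER stress protein with disulfide isomerase activity, rose most. It had 84.4 and 78.4 FPKM in control and 114 and 107 FPKM with 1,5-AG. The groups did not overlap, and the gap between them was several times the gap within either. The mean rose 1.36-fold, a log2 fold change of 0.44 (SE 0.05, limma adjusted p = 0.0425, n = 2 libraries per group here and below). The controls had 1748 and 1737 fragments of this gene and the treated libraries 2272 and 2209.

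Pdia4 (ENSMUSG00000025823, chr6:47796141-47813430, minus strand), an isomerase of the ER lumen also known as ERp72, was next among those past the threshold. It had 101 and 103 FPKM in the controls and 126 and 123 FPKM with 1,5-AG. Both treated libraries were higher than both controls by far more than the replicates differed. The mean rose 1.22-fold, a log2 fold change of 0.28 (SE 0.04, limma adjusted p = 0.0421).

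Hspa5 (ENSMUSG00000026864, chr2:34771970-34777547, plus strand) encodes BiP, the ER Hsp70 chaperone that also holds the sensors inactive when it is free of clients. It had 399 and 392 FPKM in control and 472 and 464 FPKM with 1,5-AG. The replicates of each group were within a few percent of each other and the groups were apart. The mean rose 1.18-fold, a log2 fold change of 0.24 (SE 0.03, limma adjusted p = 0.0457). These 3 calls depended on each library: 0 members passed when any 1 of the 4 was left out. The 3 then kept their direction, with limma adjusted p from 0.0976 to 0.22. All 3 calls were also lost without the variance trend or without the filter on low levels. That of Pdia4 was lost under quantile normalization and that of Hspa5 after a correction for GC content and length. With this correction and a term for replicate number together, Pdia4 (limma adjusted p = 0.0707) and Hspa5 (limma adjusted p = 0.0514) did not pass.

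**Figure D2:**
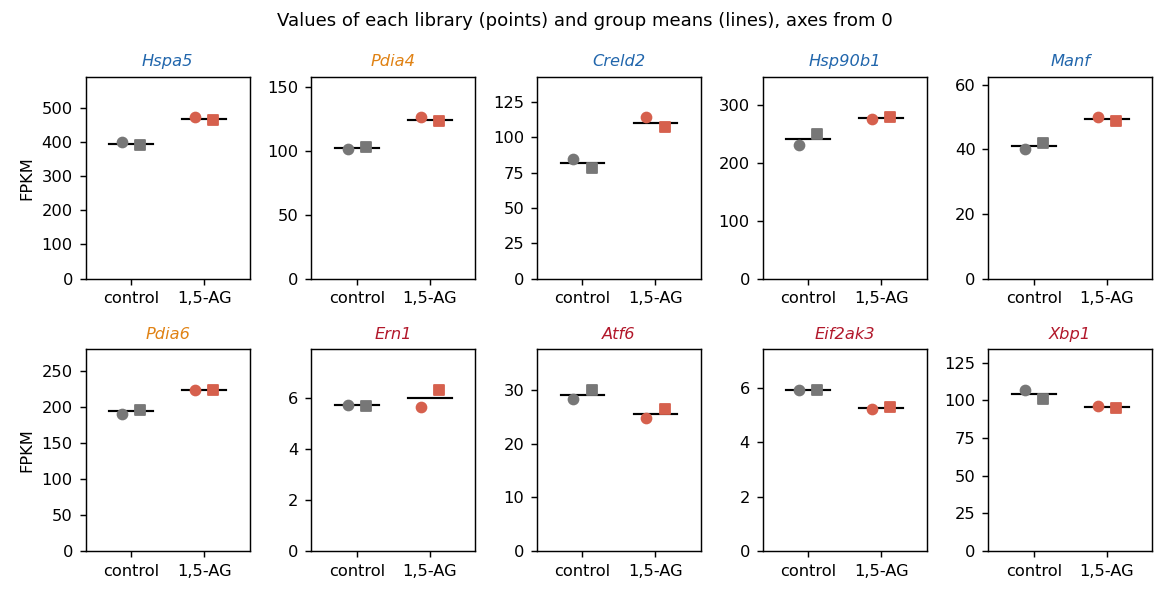
FPKM of each library for the 3 members that rose, 3 further chaperone and isomerase genes, and the sensor genes and Xbp1, with grey points for control, red for 1,5-AG, circles for replicate 1, squares for replicate 2 and lines for group means. The first 6 panels show both treated libraries above both controls, and Atf6, Eif2ak3 and Xbp1 show both below them. Of the 3 further genes, Pdia6 and Manf had the smallest unadjusted limma p (0.00174 and 0.00195) among members that did not pass, so these panels are a selection.

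A second model, voom, worked on the fragment counts recovered from the FPKM values and weights each gene by the precision its counts allow. It called 14 of the 33 members higher (42.4%) and 1 lower (3.03%), against 3.64% and 4.64% of all genes. The 3 members above were among the 14. The added ones were Hsp90b1, Calr, Pdia3, Pdia6, P4hb, Dnajb11, Dnajc3, Herpud1, Manf, Hyou1 and Ssr1. Which single members are called thus changes with the model and its settings, those 3 included.

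Among BiP, GRP94 and their partners all 9 members had positive values, with a median of 0.21. In 8 of the 9 both treated libraries lay above both controls, against 24.2% of all genes. Creld2 and Hspa5 rose, and 7 did not pass limma, which called 0.809% of all genes higher. Hsp90b1, the gene of the ER Hsp90 chaperone GRP94, had 231 and 250 FPKM in control and 276 and 279 FPKM with 1,5-AG. Its treated libraries were both higher, but its controls differed from each other more than did those of Hspa5 (0.21, SE 0.05, limma adjusted p = 0.12). Manf, a secreted neurotrophic factor that binds BiP, had 41.0 ± 1.46 FPKM in control and 49.3 ± 0.894 FPKM with 1,5-AG (SD; limma adjusted p = 0.0757). Dnajb11, an ER J-protein that binds clients, had a value of 0.21 (limma adjusted p = 0.0917). Hyou1, the large Hsp70-type chaperone that exchanges nucleotide on BiP, had 0.16 (limma adjusted p = 0.108). Dnajc3, the J-protein P58IPK, had 0.17 and Dnajb9 0.14. Sdf2l1, a partner of ER J-proteins, had 0.14 with overlapping groups, as its replicates differed within both groups (179 and 158 FPKM, then 196 and 174 FPKM).

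Calr and Canx are the lectin chaperones that hold glycoproteins carrying a single glucose until they fold. Calr had 598 ± 15.1 FPKM in control and 662 ± 9.36 FPKM with 1,5-AG (0.15, limma adjusted p = 0.126). Canx, the membrane-bound member of the pair, had 245 ± 10.7 and 257 ± 5.07 FPKM (0.07, limma adjusted p = 0.481). In both genes the treated libraries were higher, for Canx by less than the gap between its controls (238 and 253 FPKM against 261 and 254 FPKM).

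The 7 isomerases all had positive values, and in all 7 both treated libraries lay above both controls, against 24.2% of all genes. Pdia4 rose and 6 did not pass limma, which called 0.809% of all genes higher, and the median over the 7 was 0.13. Pdia6, an isomerase of the BiP complex, had 194 ± 3.77 FPKM in control and 223 ± 1.17 FPKM with 1,5-AG (0.20, limma adjusted p = 0.0716). P4hb (0.13, limma adjusted p = 0.151) and Pdia3 (0.13, limma adjusted p = 0.16) were alike in size. Pdia3, also called ERp57, works with the lectin chaperones. Ppib, the ER cyclophilin B that turns proline bonds, had 0.12, and Txndc5 and the reductase Dnajc10 had 0.07 each. The exons of Ppib share 825 bases with Snx22 on the opposite strand. No source used here gives the strand setting of the counting, so whether the value of Ppib gains or loses reads there is not known. Hsp90b1 (415 bases), Sec61a1 (549) and Eif2ak3 (485) share exon sequence with a gene on the opposite strand too, as do Txndc5 (311), Derl2 (231), Manf (166), Syvn1 (91) and Pdia6 (50). Pdia3, with 18 bases, and Dnajb9, with 14, overlap by less. On the same strand Pdia4 shares 14 bases with Mir704, Hsp90b1 overlaps Gm25745 and Gm15344, and Manf overlaps Rbm15b, and a count by strand would not separate these.

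The genes of ER-associated degradation had values on both sides of 0. Of its 8 tested members 5 were positive and 3 negative, the median was 0.03 and 0 passed limma. At an unadjusted limma p under 0.05 1 was higher and 0 lower, against 9.15% and 9.04% of all genes. Voom called 1 higher, Herpud1, against 3.64% of all genes. In 4 of the 8 the groups overlapped, close to the share among all genes tested (5604 of 11120). Herpud1, a membrane scaffold of the degradation complex, stood highest at 0.26, with 29.7 and 24.6 FPKM in control and 32.5 and 32.6 FPKM with 1,5-AG. Its controls differed by more than its treated libraries did, and it did not pass limma (SE 0.09, limma adjusted p = 0.238). Syvn1, the ubiquitin ligase HRD1, had 0.12 and its partner Sel1l 0.04. The derlin genes Derl1 and Derl2 had 0.07 and -0.01. Os9, a lectin that picks out misfolded glycoproteins, had 0.01. Edem1 and Edem2, which trim mannose from such glycoproteins, had -0.02 each. The values of Os9, Derl2, Edem1 and Edem2 were smaller than their standard errors, and each changed sign under at least 1 other setting.

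In the translocon, through which new chains enter the ER, 0 of 3 members passed limma. At an unadjusted limma p under 0.05 2 were higher, against 9.15% of all genes. Voom called 1 higher, Ssr1 (voom adjusted p = 0.0213), against 3.64% of all genes. Sec61a1, the channel subunit, had 0.13 (limma adjusted p = 0.249) and Ssr1, a subunit of the attached TRAP complex, 0.14 (limma adjusted p = 0.177). Sec61b, a small subunit of the channel, had 0.02 with overlapping groups, and its sign changed under quantile normalization.

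Of the 3 sensor genes and Xbp1, 0 passed limma, and voom called 1 lower, against 4.64% of all genes. At an unadjusted limma p under 0.05 3 were lower, against 9.04% of all genes. These 3 were all of the lower members of the module, and over the 33 tested members their share was close to that of all genes. Ern1 had 5.74 and 5.72 FPKM in control and 5.67 and 6.34 FPKM with 1,5-AG, so its groups overlapped (0.06, SE 0.07, limma adjusted p = 0.738). Atf6 had 28.3 and 30.1 FPKM in control and 24.8 and 26.5 FPKM with 1,5-AG. Both treated libraries were lower, and the group means were further apart than the replicates of either group (-0.18, SE 0.06, limma adjusted p = 0.188), and voom called it lower (adjusted p = 0.0128).

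Eif2ak3 had 5.93 and 5.93 FPKM in control and 5.23 and 5.29 FPKM with 1,5-AG. The groups were apart (-0.15, SE 0.06, limma adjusted p = 0.274), and the 2 control values, from 542 and 580 fragments, lie closer together than counts of that size can resolve. Xbp1 had 107 and 101 FPKM in control and 96.1 and 95 FPKM with 1,5-AG. It was lower in both treated libraries (-0.12, SE 0.04, limma adjusted p = 0.236). A value per gene does not tell spliced from unspliced Xbp1 RNA, so the activity of IRE1 was not measured here. The median over these 4 genes was -0.13, against 0.21 in the group of BiP, and the difference between roles was not tested.

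**Figure D3:**
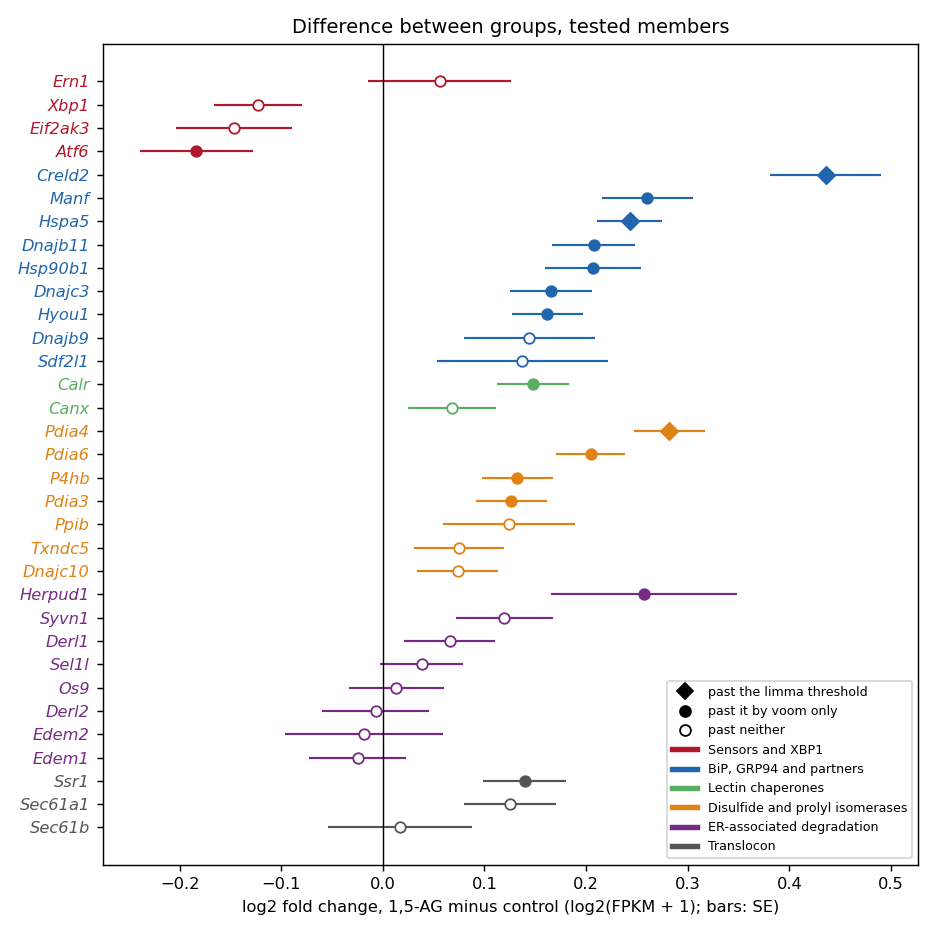
Log2 fold change of the 33 tested members, 1,5-AG minus control, with bars for the standard error, coloured and grouped by role. Diamonds mark Creld2, Pdia4 and Hspa5, which passed limma, filled circles mark members past the threshold by voom only and open circles those past neither.

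Members were also set apart by the promoter element shown above. All 10 tested members with an ERSE or ERSE-II match had positive values, from 0.07 to 0.44, with a median of 0.21, and 2 of them rose. Of the 18 members searched without a match 13 were positive, with a median of 0.06, and 1 rose. The 5 members with no promoter entry had a median of 0.13. Of all genes tested 49.1% were positive and limma called 0.809% higher. Of all tested members, with or without a match, 81.8% were positive. Members with and without a match occurred within the same role. Among degradation genes Herpud1 (0.26) and Syvn1 (0.12) had a match, and Sel1l (0.04), Os9 (0.01), Derl2, Edem1 and Edem2 had none. In the group of BiP the 5 members with a match ran from 0.17 to 0.44, and Dnajb9 and Sdf2l1, without one, had 0.14 each. Among isomerases Pdia4 (0.28) had no match and Pdia6 (0.20) had one. The difference between members with and without a match was not tested. Outside the module 28 genes had an ERSE match, and of the 4 of them that were tested 1 was positive and 0 passed limma. Of 7 tested genes outside the module with an ERSE-II match 6 were positive and 0 passed limma.

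**Figure D4:**
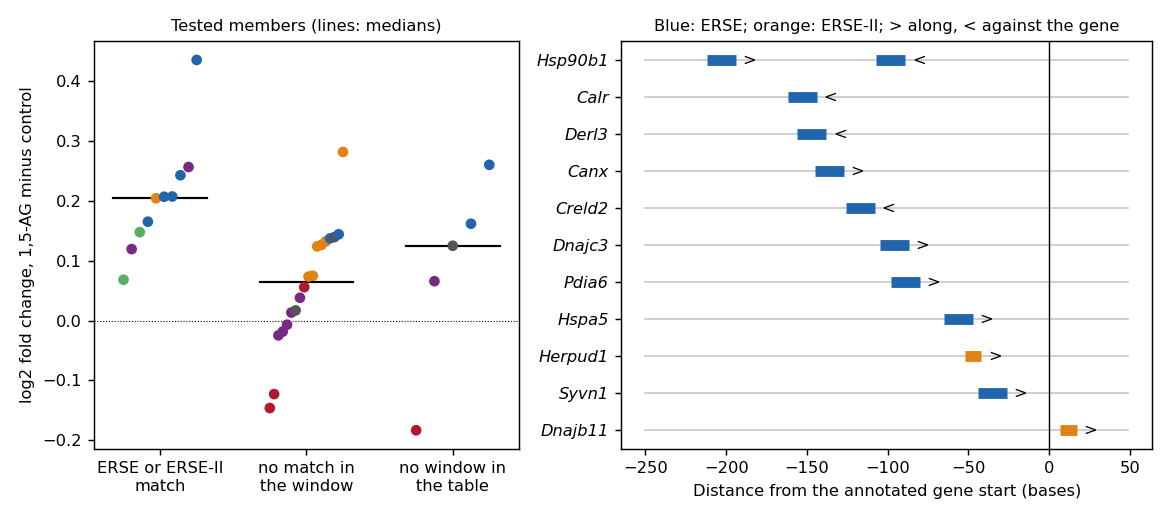
Left, log2 fold change of tested members by whether their promoter window holds an ERSE or ERSE-II match, coloured by role as in the plot of fold changes, with lines at the medians of 0.21, 0.06 and 0.13. Right, position of each match relative to the gene start in bases, with blue for ERSE, orange for ERSE-II and arrowheads for the direction relative to the gene.

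Other genes of the pathway were taken from lists that are not part of the module. They are read against all genes tested, of which limma called 0.809% higher and 0.647% lower and voom 3.64% and 4.64%. Of all genes 49.1% were positive and 24.2% had both treated libraries above both controls. At an unadjusted limma p under 0.05, 9.15% of all genes were higher and 9.04% lower. In the arm of PERK and ATF4 2 of 17 tested genes rose and 1 fell by limma, voom called 6 higher and 1 lower, 14 were positive and the median was 0.20. Ddit4, an inhibitor of mTORC1, rose from 3.53 ± 0.169 to 5.84 ± 0.431 FPKM (0.60, limma adjusted p = 0.0454). Asns, the asparagine synthetase gene, rose by 0.40, and the transcription factor gene Atf3 fell by 0.53 (limma adjusted p = 0.0274). The calls of Ddit4, Asns and Atf3 were lost with any 1 library left out (limma adjusted p from 0.105 to 0.172), without the variance trend and without the filter, and that of Asns also under quantile normalization and that of Ddit4 with the replicate block and GC correction together. Atf4, Ddit3 and Ppp1r15a are named here after their values were seen. Atf4, the factor favoured by PERK, had 118 and 115 FPKM in control and 145 and 139 FPKM with 1,5-AG (0.28, limma adjusted p = 0.0504, voom adjusted p = 0.000121). Ddit3, the gene of the stress factor CHOP, had 4.89 and 5.50 FPKM against 5.55 and 5.91 FPKM (0.12, limma adjusted p = 0.481). Ppp1r15a, the gene of GADD34 that reverses the phosphorylation of eIF2alpha, had -0.01 (limma adjusted p = 0.929). The activity of PERK was not measured here, and its part in the values of this list was not tested.

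Among other genes of ER folding and redox 1 of 21 rose and 0 fell by limma. At an unadjusted limma p under 0.05 4 were higher and 1 lower, against 9.15% and 9.04% of all genes. Voom called 2 higher and 0 lower, and the median was 0.03. That gene was Ero1l, the oxidase that recharges disulfide isomerases, which went from 28.6 ± 0.735 to 36.0 ± 0.878 FPKM (0.32, limma adjusted p = 0.049). This call was lost at a pseudocount of 0.1 (0.0505), without the filter (0.126), under quantile normalization (0.0763), without the variance trend (0.123), with block and GC correction together (0.0642) and with any 1 library left out (0.143 to 0.199). Of 32 genes of translocation, signal peptidase and glycosylation 0 passed limma, 10 were higher at an unadjusted p under 0.05 and voom called 5 higher. In this list 31 were positive and the median was 0.09. The smallest p among them was that of Ostc, a subunit of oligosaccharyltransferase (0.25, limma adjusted p = 0.0564). Of 22 other degradation genes 0 passed limma or voom, 0 had an unadjusted p under 0.05 and the median was 0.04, with the smallest p in Herpud2 (-0.14, limma adjusted p = 0.37). Of 18 genes of ER exit and ATF6 processing 0 passed limma or voom, 3 were higher at an unadjusted p under 0.05 and the median was 0.04, with the smallest p in Sec24d, a coat subunit of transport vesicles (0.15, limma adjusted p = 0.202).

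Chaperones of other compartments were listed for comparison. Of 18 tested cytosolic and mitochondrial chaperone genes 0 passed limma. At an unadjusted limma p under 0.05 9 were higher and 1 lower, against 9.15% and 9.04% of all genes. In this list 13 were positive, the median was 0.11 and both treated libraries lay above both controls in 13, against 24.2% of all genes. Voom called 7 of them higher, against 3.64% of all genes. The smallest p was that of Hspa4, a cytosolic nucleotide exchange factor (0.17, limma adjusted p = 0.0918). The difference between these chaperones and those of the ER was not tested.

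**Figure D5:**
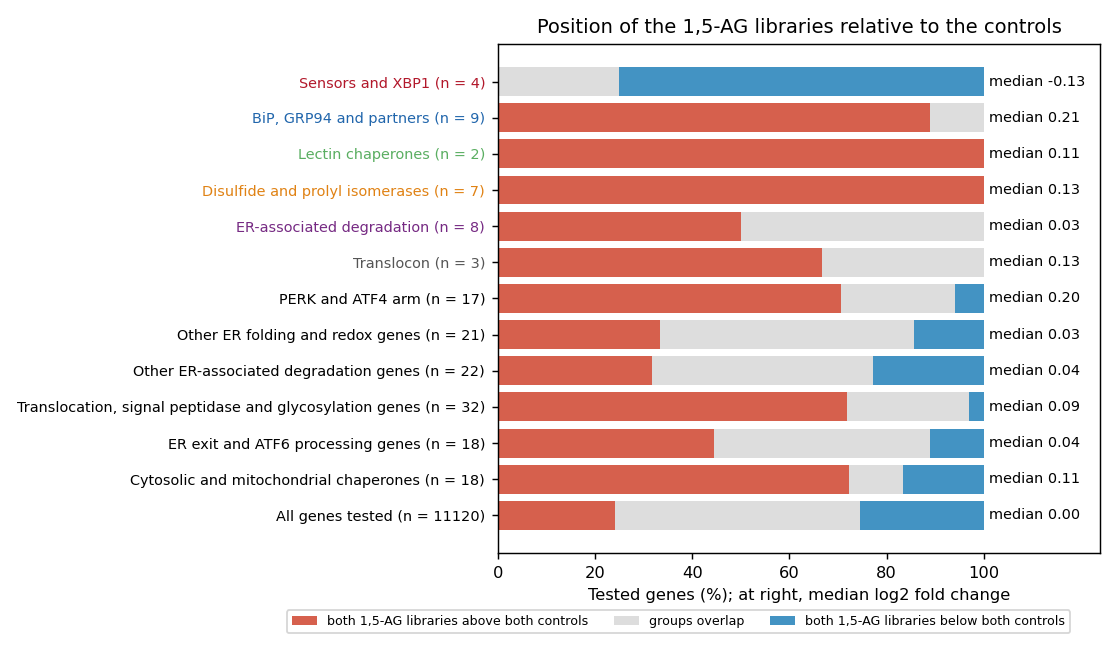
Share of tested genes in which both 1,5-AG libraries lay above both controls (red), the groups overlapped (grey) or both lay below (blue), for each role within the module (coloured names), the other lists and all 11120 genes tested, with the median log2 fold change at the right. All 7 isomerases are red, 3 of the 4 sensors and Xbp1 are blue, and all genes split into 24.2% red and 25.4% blue.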

How the data were processed

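RNA of RAW264.7 cells was sequenced from 2 control and 2 1,5-AG libraries with a stranded mRNA kit, per the labels' protocols. The authors deposited FPKM, 1 column per library. Tools named per the submitters' processing notes were HISAT2, HTSeq, Cufflinks and Trimmomatic, with build mm10. No source used here gives their versions, roles or strand setting. Of 21523 identifiers 21508 matched GENCODE M21, which gave symbols, exon lengths and coordinates. FPKM times merged exon length came out whole, within 0.02 fragments, for 99.4% of matched genes in all 4 libraries, which gave fragments. FPKM divides by that merged length, so a gene with a long minor isoform has a lower level.

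Genes averaging 1 FPKM or more were tested on log2(FPKM + 1) with limma 3.58.1 in R 4.3.3 (group as the only term, variance trend, two-sided, Benjamini-Hochberg over 11120 genes, threshold 0.05). Of rows sharing a symbol the most abundant was kept, which left out 8. The code was tested on simulated data. Alternatives were pseudocounts, filters, scaling, variance models, voom, GC and length correction, a replicate block and leaving out each library. Replicate numbers did not pair libraries by the labels, and deviations of equal numbers correlated at 0.0124. All 34 members are named; from each other list up to 3 genes past the threshold, or else the gene with the smallest p. Members and lists were chosen with earlier results of these data known. Sequences are from RefSeq, GRCm38.p6.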

Additional observations from a re-analysis of the deposited data

How the results depend on the processing

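Against 3 members higher and 162 genes called, 3 members passed with pseudocounts of 0.1 and 0.01, median-ratio scaling and robust variance, and 2 under quantile normalization and after correction for GC content and length. At a mean FPKM of at least 5 there were 5 (360 genes), among protein coding genes 7 (412), and with voom 14, plus 1 member lower (915). With no variance trend 0 passed (5 genes), and with no filter 0 (0 genes), while 18.2% of genes had an unadjusted limma p under 0.05 in the filtered test. With 1 library left out 0 members and 2 to 10 genes passed; a group of 1 library is then assumed to vary like the other. The replicate block gave 5 members (310 genes), and with GC and length correction 1 (104). The median of the members was 0.0833 under quantile normalization and at most 0.1387 over the 17 settings. Reversals were Os9 (-0.0204) and Sec61b (-0.0293) under quantile normalization, and Edem2 (0.0046) and Derl2 (0.0038) under GC and length correction, with or without the block. With 1 library left out, Ern1 ran from -0.0135 to 0.1251, Edem1 from -0.0723 to 0.0229, Edem2 from -0.1152 to 0.0784, Derl2 from -0.0369 to 0.0232, Os9 from -0.0323 to 0.0592 and Sec61b from -0.0623 to 0.0963. Fewer libraries or other genes tested are part of some settings; otherwise the cause was not tested. Over these settings 503 values of members held their side of 0.05, 22 lost and 20 gained a call, and 16 changed sign. For the 8 genes named by rule from other lists these counts were 100, 29, 6 and 0. A gene with a 2 kb exon length needs 0.0924 to 0.103 FPKM for 3 fragments, which limits Derl3.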
